A study of Mus musculus with 24 samples.

Results

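Germinal center (GC) B cells that had lost 1 copy of both Crebbp and Kmt2d (CK) were compared with GC B cells that had lost 1 copy of Kmt2d only (K), to ask what losing a Crebbp copy adds once a Kmt2d copy is gone. The members are the 5 CK and 4 K libraries, chosen by their genotype labels, of 17 libraries with values and 24 samples listed in all. The other 8 libraries came from 4 control mice (WT) and 4 mice that had lost 1 copy of Crebbp (C). The 7 sorted centroblast and centrocyte samples were not analysed here. All 17 mice carried the Cre recombinase on 1 allele (Cg1Cre+/-), which is driven from the immunoglobulin gamma-1 constant region and acts in B cells responding to antigen. C mice were in addition Crebbp fl/+, K mice Kmt2d fl/+, and CK mice Crebbp fl/+ and Kmt2d fl/+, so every deletion was heterozygous and began during the response. The mice were immunized with SRBC (sheep red blood cells) and GC B cells were purified from the spleen on day 10, 60000 cells per library, with 1 library per mouse. The study describes the mice as female, 8 weeks old and on the C57BL/6J background. Accessibility was measured by ATAC-seq, an assay in which the Tn5 transposase tags DNA that nucleosomes leave exposed, so that more fragments come from open sites.

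CREBBP is an acetyltransferase that marks histone H3 at active enhancers and promoters and serves as a coactivator for many transcription factors. KMT2D is a methyltransferase that places the H3K4 monomethyl mark at enhancers. Both genes are recurrently mutated in lymphomas that arise from GC B cells, where losses commonly affect a single allele. In the GC, B cells cycle between proliferation with mutation of their antibody genes and selection by T cells, and they leave as memory B cells or plasma cells.

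The deposited table holds fragment counts for 65483 consensus peaks on mm10 (GRCm38). K libraries held 17918843 to 21612475 fragments in peaks and CK libraries 17483706 to 20843883. Pearson's r of log2 CPM across peaks lay between 0.981 and 0.987 within K and between 0.979 and 0.986 within CK. CPM are fragment counts scaled to library size with TMM factors. Peaks were called with edgeR, by its quasi-likelihood test, where the Benjamini-Hochberg adjusted p was under 0.01.

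Chromosome Y was at variance with the stated sex. At 12 peaks on single-copy sequence of this chromosome, 3 of 4 K mice and 2 of 5 CK mice held 1450 to 1706 fragments, and the other K mouse and 3 CK mice held 1 or 2. K2, CK2, CK3 and CK5 were the mice lacking this signal. Sex by this measure was therefore unevenly spread over the groups compared, and values with each kind of mouse alone are given below and in the closing section.

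Few single peaks differed between CK and K mice. Of 65483 peaks, 6 were called (0.00916%), of which 3 were more and 3 less accessible in CK than in K (0.00458% each way). At an adjusted p under 0.05 the count was 23 (0.0351%), 9 higher (0.0137%) and 14 lower (0.0214%), and an unadjusted p under 0.05 was reached by 4814 peaks (7.35%), 2713 higher (4.14%) and 2101 lower (3.21%). All 5 CK mice lay on one side of all 4 K mice at 1286 peaks (1.96%), above at 749 (1.14%) and below at 537 (0.82%). The 95% confidence interval of the difference lay within 1.5-fold either way at 47099 peaks (71.9%), with a median half-width of 0.28 on the log2 scale. The middle 90% of differences ran from -0.30 to 0.38 on that scale, with a median of 0.00. In bulk libraries of this kind, fewer cells with an open site and a site less open in each cell cannot be told apart.

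**Figure D1:**
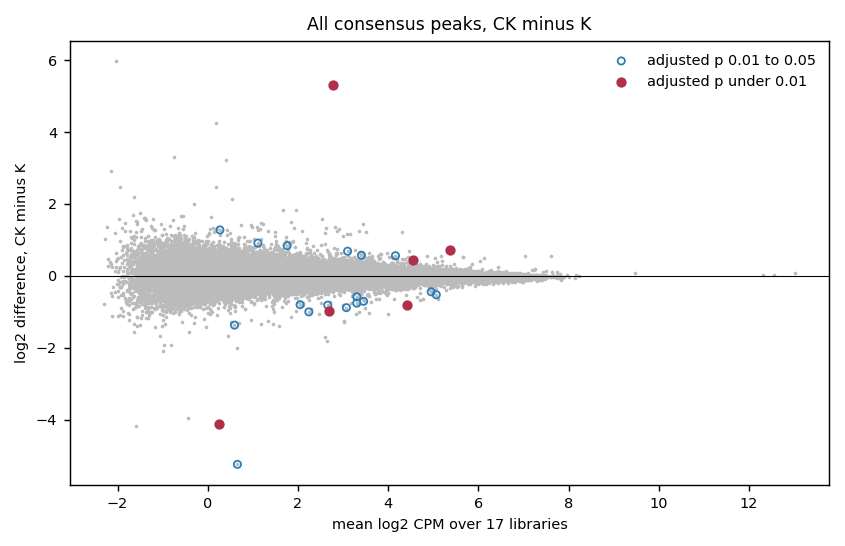
Each point is 1 consensus peak, with its mean log2 CPM over the 17 libraries on the x axis and its log2 difference CK minus K on the y axis. Red points are the 6 peaks with an adjusted p under 0.01 and blue circles the other 17 of the 23 under 0.05, while most of the 65483 peaks lie near 0.

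The central 300 bases of 4 called peaks are shown because these were the called peaks of lowest p. They are the plus strand of GRCm38 from NCBI RefSeq in lower case, with letters in capitals where a searched motif matched. The Ablim1 peak is shown at chr19:57112858-57113157, the Vti1a peak at chr19:55484027-55484326, the peak near Zfp950 at chr19:61151888-61152187 and the peak in D630024D03Rik at chr11:31815054-31815353.
Ablim1: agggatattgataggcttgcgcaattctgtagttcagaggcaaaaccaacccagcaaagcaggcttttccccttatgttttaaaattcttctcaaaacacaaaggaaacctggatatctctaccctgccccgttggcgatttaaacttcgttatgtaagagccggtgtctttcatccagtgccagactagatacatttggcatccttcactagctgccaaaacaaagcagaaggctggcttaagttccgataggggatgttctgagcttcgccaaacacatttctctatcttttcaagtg
Vti1a: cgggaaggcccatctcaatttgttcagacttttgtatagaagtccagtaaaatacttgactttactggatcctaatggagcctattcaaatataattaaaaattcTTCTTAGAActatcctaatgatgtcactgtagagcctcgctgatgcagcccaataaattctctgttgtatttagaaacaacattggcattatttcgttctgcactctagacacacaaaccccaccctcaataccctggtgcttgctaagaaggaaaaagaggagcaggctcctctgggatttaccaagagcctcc
Zfp950: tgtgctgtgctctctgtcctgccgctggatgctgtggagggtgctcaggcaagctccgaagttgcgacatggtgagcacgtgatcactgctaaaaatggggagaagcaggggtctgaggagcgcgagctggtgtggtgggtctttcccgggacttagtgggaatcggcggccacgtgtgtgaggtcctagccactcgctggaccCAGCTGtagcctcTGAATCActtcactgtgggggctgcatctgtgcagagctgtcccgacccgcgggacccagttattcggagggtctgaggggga
D630024D03Rik: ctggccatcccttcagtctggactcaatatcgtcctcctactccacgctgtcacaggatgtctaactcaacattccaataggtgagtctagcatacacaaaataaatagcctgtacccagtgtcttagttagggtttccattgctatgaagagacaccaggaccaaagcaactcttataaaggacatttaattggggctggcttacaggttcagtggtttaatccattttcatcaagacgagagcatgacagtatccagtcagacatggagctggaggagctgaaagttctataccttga
The match in the Vti1a peak is to the STAT letters TTCNNNGAA, which 8.22% of all peaks held in their central 300 bases on either strand. The matches in the peak near Zfp950 are to the E-box CAGCTG, held by 17.2% of peaks, and to the AP-1 letters TGANTCA, held by 8.92%. None of the 12 motifs searched matched in the windows of the Ablim1 and D630024D03Rik peaks.

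The largest difference among called peaks was in an intron of Ablim1 (chr19:57112611-57113403), which encodes an actin-binding LIM protein. K mice 1 to 4 held 0.21, 0.00, 0.31 and 0.32 CPM at this peak, and CK mice 1 to 5 held 10.9, 12.9, 10.9, 5.33 and 4.78 CPM. All CK mice were above all K mice, and CK4 and CK5 held less than the other 3 CK mice. WT mice ranged from 4.21 to 7.73 CPM and C mice from 8.59 to 11.6 CPM, so the K mice were the genotype that stood apart. The log2 difference CK minus K was 5.32 (95% confidence interval 4.48 to 6.16, edgeR adjusted p = 6.75e-08). Within 500 kb of this peak, 7 of the other 68 peaks were higher and 3 lower at an unadjusted p under 0.05, and 0 of them were called.

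Vti1a, which encodes a SNARE protein of vesicle fusion, held an intronic peak (chr19:55483700-55484652) that was open in 3 mice only. K1, K3 and K4 held 5.20, 5.55 and 5.17 CPM, K2 held 0.00, and the 5 CK mice held 0.11 to 0.29 CPM. WT and C mice stood at 0.09 to 0.28 CPM, as low as K2. The difference was -4.12 on the log2 scale (confidence interval -5.29 to -2.94, edgeR adjusted p = 0.00297). With only the mice lacking Y signal, K2 is the only K mouse and held no fragment at this peak, so no difference can be read there.

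An intergenic peak 10557 bp from the transcription start site (TSS) of Zfp950, a zinc finger gene, was higher in CK (chr19:61151397-61152678). K1, K3 and K4 held 22.8, 23.4 and 24.9 CPM, K2 held 40.9, and the CK mice held 48.5, 45.01, 46.0, 44.8 and 45.3 CPM. The groups did not overlap, but K2 lay nearer to CK than to the other K mice, and WT and C mice, at 41.7 to 47.9 CPM, lay where CK lay. The log2 difference was 0.72 (confidence interval 0.51 to 0.94, edgeR adjusted p = 0.00481), and it was 0.95 without K2 and 0.15 with only the mice lacking Y signal, where it was not called.

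These 3 peaks lie on the distal part of chromosome 19. Of the 2239 peaks on this chromosome 10.4% reached an unadjusted p under 0.05, 157 higher and 75 lower, against 7.35% of all peaks. Within 5000 kb of Zfp950 the count was 35 higher and 7 lower of 198 peaks. Summed over all its peaks, the share of fragments on chromosome 19 averaged 3.56 ± 0.0141% in the 4 K mice and 3.59 ± 0.0234% in the 5 CK mice, as mean and SD. An exact permutation test, two-sided, gave p = 0.111, or 0.792 after Benjamini-Hochberg adjustment over the chromosomes. The lowest p of the chromosome shares was that of chromosome 7, at 6.77 ± 0.0218% in K and 6.72 ± 0.0285% in CK. There the same permutation test gave p = 0.0317, or 0.667 after adjustment.

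On chromosome 11 a pair of called peaks lay in introns of D630024D03Rik, upstream of Cpeb4, which encodes an RNA-binding protein that controls poly(A) tail length and translation. At the peak 56201 bp from the Cpeb4 TSS (chr11:31814396-31816010), K mice 1 to 4 held 29.7, 29.7, 16.8 and 30.7 CPM and CK mice 14.9, 14.3, 15.7, 16.3 and 14.8 CPM. K3 was the only K mouse near the CK level. WT mice held 28.8 to 32.7 CPM and C mice 13.6 to 15.5 CPM. The log2 difference CK minus K was -0.81 (confidence interval -1.05 to -0.58, edgeR adjusted p = 0.00297), and C minus WT was -1.08. At the neighbouring peak 59290 bp from the TSS (chr11:31812194-31812921), K mice held 8.65, 9.17, 4.66 and 8.86 CPM and CK mice 3.99, 3.50, 4.78, 3.74 and 3.86 CPM. Here K3 fell within the range of CK, and the difference was -0.98 (edgeR adjusted p = 0.00852).

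Neighbouring peaks differed too. Within 500 kb of the D630024D03Rik peak, 17 of 34 other peaks reached an unadjusted p under 0.05, of which 15 were lower in CK. At Rhbdf1, which encodes an inactive rhomboid protein, K mice held 12.9, 13.2, 8.58 and 11.7 CPM and CK mice 6.58 to 8.45 CPM, with K3 again the lowest K mouse. At Nprl3, which encodes a subunit of a complex that restrains mTORC1, K3 held 25.02 CPM against 39.0 to 41.7 in the other K mice and 23.6 to 27.8 in CK. Farther along, an intronic peak of Atp10b, a phospholipid-transporting ATPase gene, showed 7.48 CPM in K3, 12.3 to 13.8 in the other K mice and 6.08 to 7.57 in CK. The last 3 peaks passed an adjusted p of 0.05 but not 0.01 (edgeR adjusted p = 0.0369, 0.0341 and 0.0208).

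The sixth called peak covered the start of Nr3c2, which encodes the mineralocorticoid receptor (chr8:76898883-76902574). K mice held 22.6, 23.5, 21.2 and 22.9 CPM and CK mice 30.2, 31.6, 31.6, 29.4 and 29.8 CPM. The groups were apart, and no mouse stood out in either of them. WT mice held 15.1 to 20.3 CPM and C mice 20.3 to 22.6 CPM, so CK lay above the other 3 genotypes. The log2 difference CK minus K was 0.44 (confidence interval 0.30 to 0.58, edgeR adjusted p = 0.00906), and the 9 other peaks within 500 kb of it had differences above 0, with a median of 0.21, but 0 of them reached an unadjusted p under 0.05. Within 500 kb of the whole Nr3c2 gene 20 of 29 peaks were above 0 and 9 below, with a median of 0.07. The size of the difference ranged from 0.41 to 0.45 as each mouse was left out. The peak missed the call under 19 of 26 alternatives, among them a cut at 1.5-fold, which is larger than this difference. Leaving out K1 alone, or CK2 alone, took the adjusted p of each called peak but the Ablim1 peak above 0.01.

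**Figure D2:**
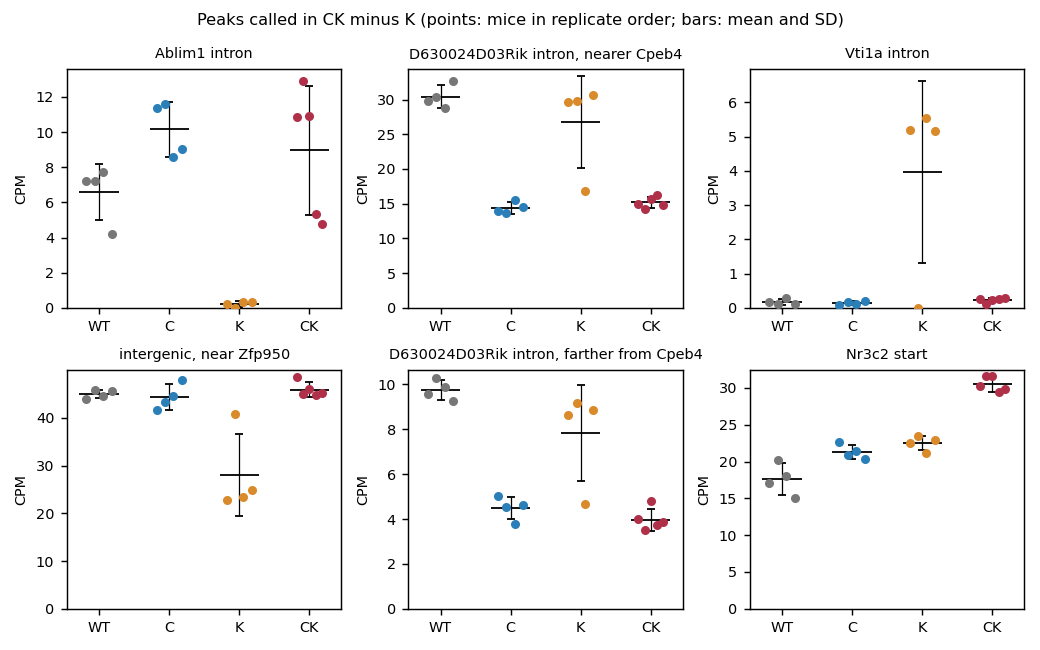
Each panel is 1 of the 6 called peaks, with CPM on the y axis from 0 and the genotypes on the x axis. Points are mice in replicate order, lines are means and bars are SD, and K2 stands apart at the Vti1a peak (0.00 CPM) and the Zfp950 peak (40.9 CPM) while K3 stands apart at both D630024D03Rik peaks (16.8 and 4.66 CPM).

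Uncalled peaks with fully separated mice are given as values only, 5 in each direction by lowest p. In an intron of Maml3, which encodes a Notch coactivator, K mice held 0.64 to 0.73 CPM and CK mice 1.49 to 1.78 CPM (log2 difference 1.28). An intronic peak of Smad1, a transcription factor of BMP signalling, stood at 6.003 to 8.03 CPM in K and 8.92 to 12.3 CPM in CK (0.69). An intronic peak of Lgr6, an R-spondin receptor gene, stood at 6.74 to 7.80 CPM in K and 9.42 to 11.95 CPM in CK (0.58). The other two on the higher side were at Slitrk5 (0.91) and near Fam160b1 (0.84).

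On the lower side, an intronic peak of Fah, whose enzyme completes tyrosine breakdown, stood at 31.1 to 38.3 CPM in K and 20.6 to 29.4 CPM in CK (log2 difference -0.44). A peak in Gm12968, nearest to Trim62, stood at 7.59 to 11.8 CPM in K and 3.31 to 6.91 CPM in CK (-0.88). The remaining 3 were the Rhbdf1 peak (-0.58) and a further pair of D630024D03Rik peaks (-0.998 and -1.37), all in the chromosome 11 neighbourhood. The edgeR adjusted p over these 10 peaks ran from 0.0115 to 0.0369.

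Summing the peaks within 5 kb of the TSS gave 15145 gene promoters, where the median half-width of the interval was 0.11 and 14095 (93.1%) had an interval within 1.5-fold. Nr3c2 was the 1 promoter called (0.0066%, edgeR adjusted p = 0.00487). At an adjusted p under 0.05 there were 13 promoters (0.0858%), 10 higher (0.066%) and 3 lower (0.0198%) in CK, and at an unadjusted p under 0.05 there were 1078 (7.12%), 736 higher and 342 lower.

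Among the higher promoters of that wider set, Slitrk5, a transmembrane protein gene of neurons, had the largest difference, from 1.29 to 1.65 CPM in K to 2.41 to 3.07 CPM in CK (log2 difference 0.91, edgeR adjusted p = 0.0223). Amot, which encodes the YAP-binding protein angiomotin, went from 2.66 to 3.14 CPM in K to 3.79 to 5.92 CPM in CK (0.71). It lies on chromosome X, and the groups held unequal shares of mice with Y signal, so the part of sex in this difference was not tested. Nhsl1, a regulator of the actin cytoskeleton, went from 8.49 to 9.21 CPM in K to 11.6 to 14.3 CPM in CK (0.49). Fmn2, an actin-nucleating formin gene, showed 0.52, Smad1 0.45 and Vcan, which encodes the matrix proteoglycan versican, 0.30. Acad8, an enzyme gene of valine breakdown, and Thyn1 share their promoter peaks and showed the same 0.28.

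The 3 promoters that were lower were Trim5, Sh2d2a and Dkk3. Trim5, of a family of antiviral restriction factors, held 72.9, 71.2, 41.4 and 40.7 CPM in K mice 1 to 4 and 34.9 to 37.7 CPM in CK (log2 difference -0.64). K1 and K2 lay near the WT range of 77.7 to 84.2 CPM, whereas K3 and K4 lay just above the top of CK and at the upper end of the C range of 34.0 to 41.0 CPM. Sh2d2a, an adapter gene of T cell signalling, stood at 20.6 to 26.7 CPM in K and 15.7 to 19.5 CPM in CK (-0.40). Dkk3, of a family of secreted Wnt regulators, stood at 47.6 to 58.7 CPM in K and 35.4 to 45.6 CPM in CK (-0.37).

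**Figure D3:**
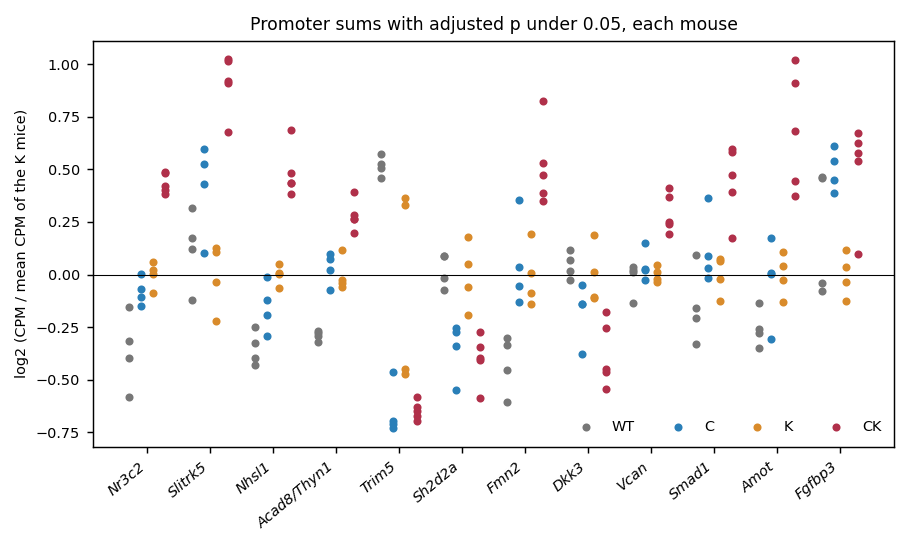
The promoter sums with an adjusted p under 0.05 are on the x axis, with each mouse as a point at its log2 ratio of CPM to the mean of the K mice (y axis), colored by genotype. The K mice of Trim5 split into a higher and a lower pair, and 1 CK mouse of Fgfbp3, at 42.8 CPM, lies among the K mice.

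Fgfbp3, which encodes a binding protein for fibroblast growth factors, was the remaining promoter of the 13 (log2 difference 0.52, edgeR adjusted p = 0.0495), and it was part of a stretch of chromosome 19. Its promoter held 43.3, 41.1, 36.6 and 39.0 CPM in K and 42.8, 58.2, 61.7, 59.7 and 63.7 CPM in CK. CK1 lay inside the K range. Kif11, which encodes a mitotic kinesin and starts within 500 kb of Fgfbp3, held 52.0, 50.9, 53.3 and 49.5 CPM in K and 51.7, 76.6, 72.6, 70.3 and 72.9 CPM in CK (0.42, edgeR adjusted p = 0.0793), so that CK1 again lay with K. Its WT mice held 75.9, 53.4, 54.3 and 75.9 CPM, spanning both levels within 1 genotype. The distal peaks of Ide, the insulin-degrading enzyme gene between them, summed to 6.37, 6.23, 6.65 and 5.49 CPM in K and to 7.24, 13.7, 13.4, 10.9 and 11.5 CPM in CK (0.87, edgeR adjusted p = 0.0245). At Hhex, a homeobox gene of the memory B cell fate next to Kif11, the promoter held 30.5 to 31.6 CPM in K and 30.7 to 36.3 CPM in CK (0.15, edgeR adjusted p = 0.464). Btaf1, a TBP-binding ATPase gene of the same stretch, showed 0.52 at its promoter, with CK1 at 47.1 CPM and the other CK mice at 62.9 to 74.4. Btaf1 was chosen after its values were seen, and the promoters of Cpeb3 and March5 in the same stretch showed 0.05 and 0.04 (edgeR adjusted p = 0.9997 for both).

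Distal peaks, those over 5 kb from a TSS, were summed to the nearest gene within 100 kb, which gave 10223 loci. Of these 2 were called (0.0196%) and 4 passed an adjusted p of 0.05 (0.0391%), with 856 (8.37%) at an unadjusted p under 0.05. The 10 distal peaks of Cpeb4 summed to 65.8, 65.0, 38.05 and 75.6 CPM in K and 33.4, 31.6, 35.1, 35.2 and 35.7 CPM in CK, and all 10 peaks had a difference below 0. K3 lay next to CK, and C mice, at 33.5 to 35.2 CPM, lay with CK, while WT mice held 73.0 to 78.7 CPM. The log2 difference was -0.84 (confidence interval -1.07 to -0.61, edgeR adjusted p = 0.00158). The Zfp950 locus summed to 52.8, 72.3, 53.7 and 51.7 CPM in K and 83.7, 82.5, 82.0, 77.0 and 76.4 CPM in CK (0.48, confidence interval 0.34 to 0.63, edgeR adjusted p = 0.0028). Fam160b1 (0.53) and Ide (0.87) were the other two that passed 0.05, so 3 of the 4 loci were on chromosome 19.

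Larger regions gave tighter intervals and few calls. Among 178 clusters of neighbouring distal peaks, the intervals of 177 lay within 1.5-fold and 0 clusters (0%) were called (9, or 5.06%, at an unadjusted p under 0.05 in edgeR, and 0 called by DESeq2). The differences at 140 of 178 clusters were below 0, with a median of -0.03, beside 32326 of 65483 peaks below 0 with a median of 0.00. Among the 2045 loci of highest level in WT and C, 1323 were below 0 as well. A cluster of 16 peaks beside Irf8, a transcription factor gene of GC B cells, was among the lower ones (-0.11, edgeR adjusted p = 0.723). Among 1897 windows of 1 Mb, 0 were called (152, or 8.01%, at an unadjusted p under 0.05 in edgeR, and 8 called by DESeq2), and 7 passed an adjusted p of 0.05 (0.369%). The 4 higher windows were on chromosome 5 at 16 Mb (0.69, the largest difference of the 7, at 3.41 to 5.13 CPM in K and 5.98 to 7.81 CPM in CK), on chromosome 13 at 89 and 78 Mb (0.35 and 0.29) and on chromosome 19 at 36 Mb (0.15). The 3 lower windows were on chromosome 7 at 112 Mb, which holds Dkk3 (-0.21), and on chromosome 11 at 26 and 31 Mb (-0.15 and -0.25). At both chromosome 11 windows K3 was the lowest K mouse, at 203 and 168 CPM, against 221 to 223 and 211 to 217 in the other K mice.

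The loci of the targeted genes themselves showed no called peak. The Crebbp promoter held 46.9, 47.1, 41.4 and 40.8 CPM in K and 46.4, 44.4, 43.2, 46.7 and 45.2 CPM in CK (log2 difference 0.04, confidence interval -0.07 to 0.14). The promoter of Kmt2d, for which both groups carry 1 floxed allele, showed 0.05 (-0.02 to 0.12). The distal peaks summed to Kmt2d showed 0.64, the highest of 12 loci of coactivator genes, and did not reach an unadjusted p under 0.05. Of 67 peaks within 500 kb of Crebbp, 1 was higher and 2 were lower at an unadjusted p under 0.05, and of 84 around Kmt2d 3 were higher and 0 lower. Accessibility thus gave no check of which mice carried the Crebbp deletion.

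Genes the study names for these cells were likewise not called. At promoters, the difference was -0.01 for Cd86, a costimulatory ligand for T cells (confidence interval -0.09 to 0.08), 0.01 for Il21r, the receptor for a T cell cytokine (-0.08 to 0.09), and -0.03 for H2-Oa, which restrains peptide loading on MHC class II (-0.13 to 0.07). Zbtb20, a transcription factor gene of plasma cell survival, showed -0.04 and Cxcr4, the chemokine receptor of the dark zone, -0.04. Ccnb1, the mitotic cyclin B1 gene, and Ciita, the master regulator of MHC class II genes, showed -0.00 and -0.01. All of these promoter intervals lay within 1.5-fold. The study ties Cd86 and Zbtb20, and IL21R in a human line, to super-enhancers, groups of distal enhancers that promoter sums leave out. Clusters of distal peaks spanning the starts of Cd86 and Il21r showed -0.04 and 0.02 (edgeR adjusted p = 0.806 and 0.883). The distal peaks of Ccnb1 summed to a difference of -0.57, which did not reach an unadjusted p under 0.05.

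Il9r, an interleukin receptor gene on the chromosome 11 stretch, had distal peaks summing to 8.60, 7.98, 11.3 and 6.92 CPM in K and 10.4, 12.6, 14.2, 10.9 and 12.3 CPM in CK (log2 difference 0.48, edgeR adjusted p = 0.158). The groups overlapped through K3. At 1 intronic peak of Il9r (chr11:32189791-32190877), K3 held 3.72 CPM, the other K mice 0.32 to 0.57 and CK mice 3.14 to 6.01 CPM, while WT mice held 0.11 to 0.37 and C mice 4.47 to 7.23. The Il9r promoter showed no such split, at 90.8 to 94.95 CPM in K and 88.0 to 97.4 CPM in CK.

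The 13 gene lists were described by counts beside all genes, of which 4.86% were higher and 2.26% lower at promoters at an unadjusted p under 0.05, and 4.93% and 3.44% at loci. None of the lists held a called gene. Differences were below 0 at 7583 of all 15145 promoters and at 2077 of the 3029 promoters of highest level in WT and C. They were below 0 at 4919 of all 10223 loci and at 1323 of the 2045 loci of highest level. Of 21 genes of GC B cell identity, 19 had a promoter difference below 0 and 0 reached an unadjusted p under 0.05, with a median of -0.04. At loci 18 of 19 were below 0, with a median of -0.07, and Irf8 held 309 to 324 CPM in K and 288 to 305 CPM in CK (-0.10, edgeR adjusted p = 0.407). Under loess scaling, which removes trends with the level of a promoter, these medians were -0.02 and -0.04.

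Among 15 centroblast and cell cycle promoters, 13 were below 0, beside 7583 of all 15145. Their median was -0.04, and 1 was higher (Kif11) and 2 lower at an unadjusted p under 0.05. Cdc20, an activator of the anaphase-promoting complex, showed -0.10. Centrocyte and positive selection genes had a median of -0.02 over 16 promoters, with Ebi3, a cytokine subunit gene, at 0.31 and the Myc locus at -0.11. T cell help genes had a median of 0.00 over 14 promoters and 0 at an unadjusted p under 0.05, and the loci of Cd48 and Tnfrsf14, ligands in contact with T cells, showed 0.18 and -0.13. B-cell receptor genes had a median of -0.03 over 17 promoters, with Syk (-0.09) and Cd79a (-0.07) lower at an unadjusted p under 0.05.

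MHC class II genes had a median of -0.03 over 14 promoters, with H2-Ob alone at an unadjusted p under 0.05 (-0.07). Cytokine receptor and JAK-STAT genes had a median of -0.03 over 17, with Il13ra1 at 0.56, Il2rg at -0.17 and Jak3 at -0.11. NF-kB and CBM complex genes (15 promoters) and coactivator genes (15 promoters) had medians of 0.00 and 0 genes at an unadjusted p under 0.05. Plasma cell genes had a median of -0.02 over 10 promoters, and the loci of Tnfrsf17 and Sdc1, surface receptors of plasma cells, showed 0.43 and 0.20. Memory and follicular genes had a median of 0.03 over 15, led by Hhex. The edgeR adjusted p over all the genes named in these lists was 0.0793 or more.

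The summed markers of other cells overlapped between the groups. Of 12 T cell markers 7 had no promoter peak, among them Cd3e, Cd4, Cd8a and Trac, and the sum over the other 5 was 81.2 to 96.2 CPM in K and 78.2 to 94.1 CPM in CK, with a median difference of 0.06 and 0 at an unadjusted p under 0.05. The 11 of 12 myeloid markers with a promoter peak summed to 318 to 351 CPM in K and 325 to 348 CPM in CK, with a median difference of 0.03 and 2 at an unadjusted p under 0.05. All 10 GC B cell markers examined, among them Bcl6 and S1pr2, had promoter peaks. So did all 5 plasma cell markers and 7 of 8 memory and follicular B cell markers.

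**Figure D4:**
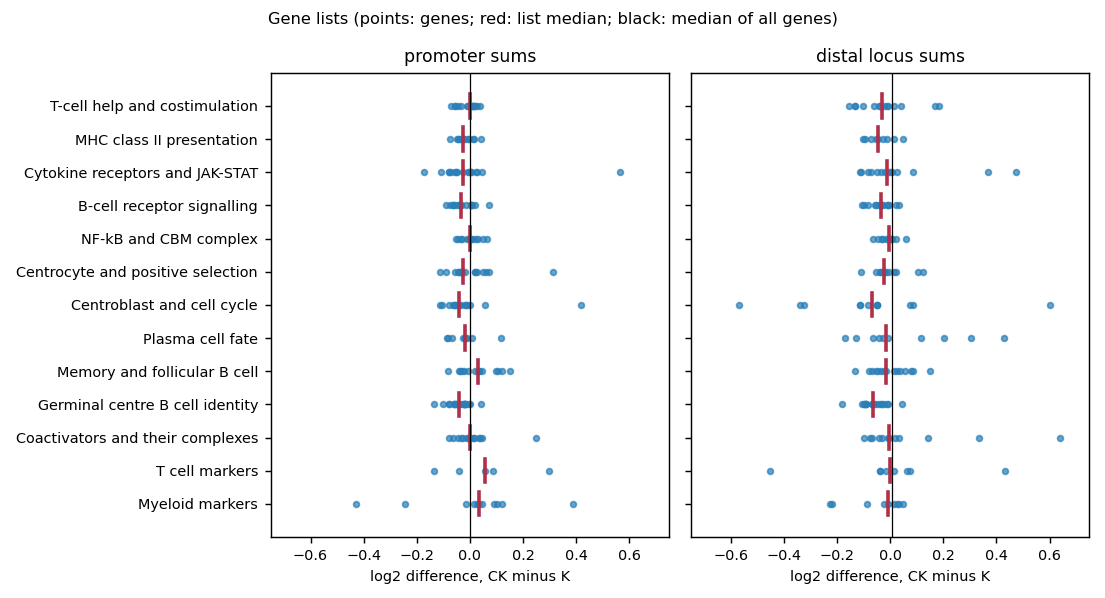
Each row is 1 of the 13 gene lists, with the log2 difference CK minus K of its genes (points) at promoters (left) and distal loci (right), the list median in red and the median of all genes as a black line. List medians lie between -0.07 and 0.06, and single genes such as Kif11 (0.42) lie farther out.

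Promoters with little accessibility differed from those with much. In the lowest 3029 promoters by their level in WT and C, 447 (14.8%) were higher and 30 (0.99%) lower in CK at an unadjusted p under 0.05, with a median difference of 0.10. In the highest 3029 promoters, 13 were higher and 120 lower, with a median of -0.02. With loess scaling the counts were 241 and 110 in the lowest class and 57 and 87 in the highest, and the medians were 0.01 and 0.00, so the size of this split depends on the scaling. The lowest class took 1.43, 1.36, 1.51 and 1.47% of promoter fragments in K mice 1 to 4 and 1.49, 1.56, 1.63, 1.58 and 1.49% in CK. The groups overlapped through K3, and the means were 1.45 ± 0.067% (SD, n = 4) and 1.55 ± 0.059% (SD, n = 5; exact two-sided permutation p = 0.0556).

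Broad shares of fragments did not separate the groups. Peaks within 1 kb of a TSS took 59.1 ± 1.37% of fragments in the 4 K mice and 59.3 ± 0.583% in the 5 CK mice (mean and SD, p = 0.865 by the exact permutation test). The most GC-rich class of peaks took 43.0 ± 1.15% and 43.3 ± 0.687% (p = 0.627 by the same exact test). On chromosome X, 109 peaks were higher and 24 lower of 1575 at an unadjusted p under 0.05. The share of fragments there was 1.48 to 1.51% in the 5 mice with Y signal and 1.59 to 1.61% in the 4 mice lacking it, of either genotype, and the part of sex in the X chromosome counts was not tested. The smallest p that 4 mice against 5 allow is 0.00794.

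The letters of 12 motifs were searched in the central 300 bases of all peaks, on both strands, and described over the 39871 distal peaks, of which the median difference was 0.00. Peaks with GGAAGTG, the core of PU.1 and SPIB sites, had a median of 0.02 and are 12.2% of all peaks. Medians were 0.01 for the STAT letters, 0.01 for the IRF letters GAAA, 2 bases, GAAA (5.03% of all peaks), 0.01 for CAGCTG and 0.01 for the RUNX letters TGTGGTT (8.46%). The AP-1 letters (-0.01), the octamer ATGCAAA (-0.01, 8.77%), the E-box CAGGTG (0.00, 24.1%), the NF-kB letters GGGA, 2 bases, TTCC (0.00, 1.22%), the EBF letters TCCC, 2 bases, GGGA (0.00, 1.40%), the CTCF letters CC, 3 bases, AGGNGGC (0.01, 6.42%) and the MEF2 letters CTA, 4 bases, TAG (0.01, 4.69%) were as near to 0. A peak can hold several of these motifs.

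Loss of a Crebbp copy was also measured with both Kmt2d copies intact, as C minus WT, and no library is shared between that comparison and CK minus K. C minus WT called 105 peaks (0.16%), 39 higher (0.0596%) and 66 lower (0.101%). At the 39 higher peaks the median difference was 1.37 in C minus WT and 0.31 in CK minus K, and at the 66 lower ones -0.97 and -0.42. The peaks were chosen by their C minus WT values, so smaller differences in CK minus K are expected from that choice alone. These medians therefore cannot show whether Crebbp loss had less effect in K mice. The sign was the same in CK minus K at 88 of 105, beside 59.9% of all peaks. At an unadjusted p under 0.05, 64 of the 105 had the same sign and 0 the opposite sign, and 2 were called in CK minus K. Of all 65483 peaks, 3756 had the same sign and 1058 the opposite sign at that p, and 5 were called with the same sign. Of the 105 peaks 64 lay in 8 windows of 5 Mb that held 4 or more of them, on chromosomes 1, 5, 7 and 11. Outside these windows 34 of 41 had the same sign, 23 of them at an unadjusted p under 0.05.

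Across all 65483 peaks, which are not independent and share the library depths of each mouse, the differences C minus WT and CK minus K correlated with a Pearson's r of 0.25 and a Spearman's rho of 0.25, and 59.9% had the same sign. Over 15145 promoters r was 0.41 and rho 0.37. From the lowest to the highest decile of C minus WT, the median of CK minus K went from -0.06 to 0.12. These are descriptions across peaks, with no replicate check of their own.

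**Figure D5:**
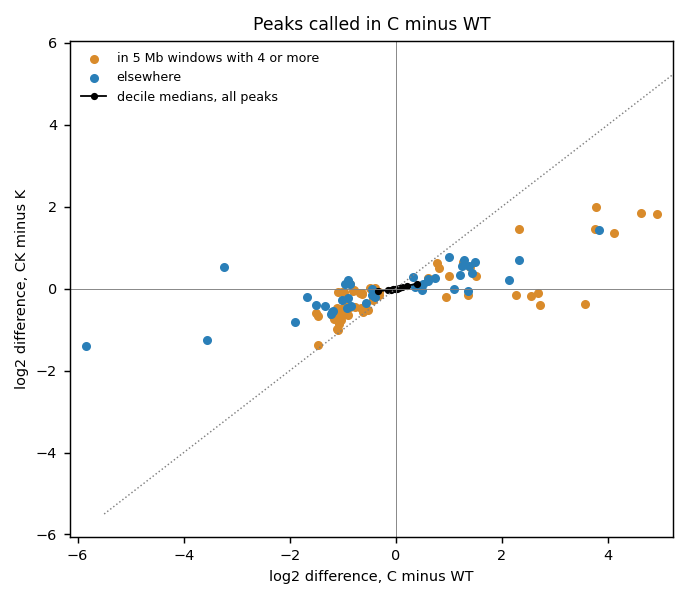
Each point is 1 of the 105 peaks called in C minus WT, with the log2 difference C minus WT on the x axis and CK minus K on the y axis, and the dotted line marks equal values. The black line joins the decile medians of all peaks, from -0.06 to 0.12 on the y axis, and most points have the sign of their x value but lie nearer to 0. Peaks and deciles were both chosen by C minus WT, from which smaller y values are expected.

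The values of single sites in both backgrounds follow. By lowest p, the 5 higher peaks of C minus WT included an intergenic peak near Mks1, a ciliary gene (chr11:87840663-87842115), where the difference was 3.57 in C minus WT and -0.39 in CK minus K. WT mice held 0.84 to 1.41 CPM and C mice 11.9 to 14.7 CPM there. K mice already held 8.38 to 10.8 CPM, and CK mice held 8.96, 8.02, 10.8, 0.90 and 8.70 CPM, so that CK4 alone lay at the WT level. An Aff3 intronic peak, in a gene for an elongation factor partner, showed 0.60 and 0.19, a Mid1 peak 1.21 and 0.33, a peak near Akap1 1.37 and -0.16, and the Il9r peak 4.62 and 1.84. On the lower side, a peak near Trim5 showed -1.20 and -0.64. Of these, the difference between backgrounds was called at the peaks near Mks1 and Akap1 and not at the Aff3, Mid1, Il9r and Trim5 peaks.

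At Hjurp and Mroh2a on chromosome 1, K and CK mice lay nearer to C than to WT. The peak at the Hjurp start, a gene for a centromere histone chaperone, held 166 to 173 CPM in WT, 117 to 125 in C, 119 to 125 in K and 114 to 132 in CK. The difference was -0.48 in C minus WT and -0.01 in CK minus K. The pair of Mroh2a peaks showed -0.67 and -0.78 in C minus WT and -0.10 and -0.03 in CK minus K.

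The difference between the 2 backgrounds was tested directly at each peak, as CK minus K less C minus WT. It was called at 7 peaks (0.0107%), while 2444 (3.73%) reached an unadjusted p under 0.05. Of the 7, the Ablim1 peak had a difference of differences of 4.70 (edgeR adjusted p = 0.000112), the peak near Mks1 -3.96, the Mroh2a and Hjurp peaks 0.47 to 0.75, the peak near Akap1 -1.52 and a Msi2 intronic peak -1.13. The called promoters were Trpm8, Hjurp and Mroh2a (3, 0.0198%), which adjoin on chromosome 1. At Nr3c2 the difference of differences was 0.16 and was not called.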

How the data were processed

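The authors ran ATAC-seq reads through the nf-core pipeline on mm10 and deposited the counts of fragments that featureCounts 2.0.1 gave each consensus peak, without normalization. A fragment counted for every peak it overlapped by at least 0.2 of its length. No column was left unused, and the 7 sorted samples were not analysed here. The study gives as many mice as libraries, so each library was taken as 1 mouse.

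A single model of genotype, without covariates, was fitted to the 17 libraries by the quasi-likelihood F test of edgeR 4.0.16 (TMM factors, limma 3.58.1, R 4.3.3), after checking the fit on simulated counts, and p-values were adjusted over all features of a kind. A minimum of 10 counts over all libraries removed 0 peaks. Promoter sums, distal locus sums, peak clusters (joined within 12.5 kb, with only the most accessible kept) and 1 Mb windows were fitted alike on GENCODE M21 genes. Shares were compared by exact permutation.

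Named are all called features; the 5 uncalled, fully separated peaks of lowest p each way; the targeted genes and 8 genes the study names; 2 genes per list of lowest p; and the 5 peaks of lowest p each way of C minus WT. One gene that this rule names is not reported here. Further genes under an adjusted p of 0.05, and neighbours of a named gene, were chosen after their values were seen. The members and lists were chosen with earlier results of these data known, and the GC B cell genes checked for a promoter peak were listed after the fits.

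Alternatives were DESeq2 1.42.0, other scalings and thresholds, fits of fewer libraries, a replicate block, GC bins, other windows and leaving out each mouse. Those by presence of Y signal, without chromosomes 11 and 19, and loess scaling of lists and level classes were added after seeing the data.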

Additional observations from a re-analysis of the deposited data

Results flagged for a closer look

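Of 140 groups of 4 or 5 mice examined, 13 held a mouse whose gap to the nearest other exceeded Dixon's 95% critical value (0.829 for 4 mice, 0.71 for 5), and chance alone marks about 1 in 20 such groups. K3 was the lowest K mouse at both called D630024D03Rik peaks (16.8 and 4.66 CPM) and at the chromosome 11 windows at 26 and 31 Mb (203 and 168 CPM). K2 was apart from the other K mice at the Vti1a peak (0.00 CPM, lowest), the peak near Zfp950 (40.9 CPM, highest) and the Zfp950 locus (72.3 CPM, highest). The single mice of the other groups were CK1 at the Fgfbp3 promoter (42.8 CPM), CK2 at the Vti1a peak (0.108 CPM), CK3 at the Cxcr4 and Ccnb1 promoters (138 and 78.4 CPM), CK5 at the peak near Fam160b1 (3.23 CPM) and K4 at the H2-Oa promoter (33.8 CPM), each the lowest of its group. Without K3 the log2 difference at the Cpeb4 locus was -1.01, against -0.84 with it, and without K2 the Zfp950 locus showed 0.60, against 0.48.

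The difference of differences, CK minus K less C minus WT, was called at some features by edgeR at an adjusted p under 0.01. These were 7 peaks, 3 promoters, 1 locus and 1 window. On the log2 scale the difference of differences was 4.70 at the Ablim1 peak, -1.52 near Akap1 and -1.13 in Msi2. It was -3.96 at the peak near Mks1 and likewise -3.96 at the Mks1 locus that this peak makes up. It was 0.47 at the Hjurp peak, 0.58 and 0.75 at the Mroh2a peaks, 0.48, 0.47 and 0.67 at the promoters of Trpm8, Hjurp and Mroh2a, and 0.57 for the window of chromosome 1 at 88 Mb. All 4 K mice were low at the Ablim1 peak, and CK4 alone lay at the WT level near Mks1. At the Hjurp peak the C, K and CK mice all lay below the WT mice. Whether these differences follow the Crebbp deletion, single mice or stretches of chromosome was not tested.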

How the results depend on the processing

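The number of called features moved with the processing. At peaks, 6 in all, the count was 23 at an adjusted p of 0.05 and 38 with DESeq2 (19 each way). It was 1 in a fit of only CK and K libraries and 2 with GC content bins in limma. With the share of fragments in all chromosome Y peaks as a covariate it was 1. That share is not the single-copy Y signal: it was 0.0426% in K1, which held the signal, and 0.0425% in CK5, which lacked it. Among alternatives chosen after seeing the data, the count was 5 with presence of single-copy Y signal as a covariate. It was 4 with only mice with Y signal and 0 without chromosomes 11 and 19. The fit of only mice lacking Y signal leaves 1 K mouse, so its counts are not given. The 1 promoter became 13 at an adjusted p of 0.05, 9 with DESeq2 and 0 with the replicate block. It became 0 with the covariate of all Y peaks and with only mice with Y signal, and stayed 1 with the presence covariate. The 2 loci became 4 at an adjusted p of 0.05, 15 with DESeq2, 9 with the block and 0 with only CK and K libraries. They became 0 with the covariate of all Y peaks and stayed 2 with the presence covariate. The 0 windows became 7 at an adjusted p of 0.05, 8 with DESeq2 and 2 with 500 kb windows. The difference of differences, 7 peaks, gave 11 with DESeq2, 2 with the covariate of all Y peaks and 8 with the presence covariate. The cause of these shifts was not tested, beyond the wider threshold and the fewer libraries or peaks themselves.

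Leaving out each mouse in turn gave 1 to 32 peaks (32 without K3, 12 without CK5, 10 without K2, and 1 without K1, CK2 or CK3), 3 to 12 for the difference of differences (3 without K1, 12 without K2), 0 to 6 promoters (6 without K4, 4 without K3), 0 to 11 loci (11 without K3), 0 clusters and 0 to 4 windows (4 without K3).

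The Ablim1 peak was called under all 25 alternatives, but not all of these could have failed. The wider threshold only rereads the main fit. For peaks, the fit without the minimum count repeats the main fit, as that minimum removed no peak. A feature called in the main fit passes these settings by construction, and the tallies below count them too. The fit of only mice lacking Y signal, also counted, leaves 1 K mouse. At the Vti1a peak the fit of only mice lacking Y signal gave 5.09, against -4.12, but its K arm is 1 mouse with 0 fragments and CK is near 0, so no direction is read from it. The other named features that were called kept their direction under every alternative but passed 0.01 under fewer: 15 of 25 for the D630024D03Rik peak nearer Cpeb4, 10 of 25 for the farther one, 16 of 25 for the peak near Zfp950, 7 of 26 for the Nr3c2 peak, 14 of 21 for the Cpeb4 locus and 13 of 21 for the Zfp950 locus. The Nr3c2 promoter passed under 10 of 20 and the Vti1a peak under 17 of 24. Across its alternatives the highest adjusted p of the Cpeb4 locus by edgeR or DESeq2 was 0.207. A cut at a 1.5-fold change, which is no test, left out the Nr3c2 peak by the size of its difference. Leaving out K1 alone or CK2 alone ended each of these 8 calls, and leaving out CK3 ended all but that of the Cpeb4 locus.

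Deviations of same-numbered K and CK mice from their group means correlated at 0.126, 0.112, 0.0063 and 0.108 over peaks. Those of differently numbered mice ran from -0.231 to 0.179. The labels do not say whether a number marks a shared litter or day, which these values cannot decide, so the mice were not treated as pairs. In fits of only CK and K libraries, 6645 peaks reached an unadjusted p under 0.05 in edgeR with a replicate block and 4346 without it. With the replicate block 7 peaks were called, but 4 of the 6 peaks described in the report then missed 0.01.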
